A study of Homo sapiens with 40 samples.

Results

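Solute carriers (SLC) are membrane proteins that move amino acids, sugars, ions, metals, nucleosides and other small molecules across the plasma membrane and the membranes of organelles. The mRNAs of expressed solute carriers were followed through 3 RNA-Seq experiments in HEK293 cells, an established human embryonic kidney line. Members were the gene symbols made of SLC, a family number, the letter A and a member number, with a mean of at least 5 CPM (counts divided by the library total in M, mega) over the 4 input libraries with control siRNA. Of 55765 counted symbols, 334 had this form and 147 passed. The members just inside the limit were SLC48A1 at 5.52, SLC37A1 at 5.51 and SLC10A3 at 5.41 CPM, and those just outside were SLC38A6 at 4.99, SLC45A4 at 4.96 and SLC22A15 at 4.32. All 147 members passed the filter on low counts in every fit. SLC25A members, which sit mainly in the inner mitochondrial membrane, made up 37 of them, and 110 belonged to other families.

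In the RNA immunoprecipitation experiment (RIP), HEK293 cells without siRNA gave RNA recovered with antibodies to endogenous eIF4A1, eIF4A2 or DDX6 (IP). RIP total RNA was the reference, with 3 libraries each. For the sucrose gradients, cells were transfected with control siRNA or with CNOT1 siRNA, and input RNA, subpolysomal RNA (gradient fractions 1 to 5) and polysomal RNA (fractions 6 to 11) were sequenced, with 4 libraries for each siRNA and fraction. In the third experiment, TNRC6A and TNRC6B siRNAs were given together or control siRNA alone, and total RNA was sequenced, with 2 libraries each. These 12 groups held 40 libraries with 15.4 to 46 M counts. The labels number the replicates without saying that they came from separate cultures, so the tests measure the spread between these libraries, which may be partly technical. All libraries hold RNA from the same line, and a transient siRNA leaves part of its target.

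The HEK293 markers VIM, NEFM and LIN28B reached at least 118.5, 222 and 139 CPM in every library, KRT8 and KRT18 lay between 2.99 and 49.3, and PAX2 did not exceed 1.59. Genes of liver, leukocytes and red cells (ALB, PTPRC, CD3E and HBB) stayed at or below 0.403 CPM. The siRNA targets fell as labelled except in a pair of libraries. CNOT1 was at 28.3 CPM in the library labelled control siRNA polysomal replicate 3, against 470 to 501 in the other control polysomal libraries. It was at 631 in the library labelled CNOT1 siRNA polysomal replicate 3, against 24 to 31.6. Both were left out of the gradient fit, which used 22 libraries, and results that rest on polysomal RNA are also given with all 24 under their labels. TNRC6A was at 178 and 189 CPM with control siRNA and at 40.5 and 64.7 with TNRC6A/B siRNA, and TNRC6B went from 67.6 and 73.1 to 17.7 and 26.3.

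Most solute carriers of the plasma membrane, Golgi, endosomes and lysosomes are made on ribosomes that the signal recognition particle brings to the endoplasmic reticulum (ER). SLC25A carriers are made in the cytosol and imported into mitochondria through the outer membrane translocase and the inner membrane carrier translocase, after or during synthesis. mRNAs engaged by several ribosomes sediment in the polysomal fractions, and mRNAs with none or few in the subpolysomal ones. eIF4A1 is the helicase of the cap-binding complex eIF4F, eIF4A2 is its close paralogue, and DDX6 acts in translational repression and mRNA decay. CNOT1 is the scaffold of the Ccr4-Not complex, which shortens poly(A) tails. TNRC6 proteins link Argonaute to Ccr4-Not.

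To ask where transporter mRNAs sit on the gradient, polysomal RNA was compared with subpolysomal RNA in cells with control siRNA (n = 3 and 4). Of the 147 members, 80 were higher in polysomal RNA and 25 in subpolysomal RNA, against 33.7% and 38.4% of the 17115 genes tested (edgeR quasi-likelihood test, called where the FDR, adjusted by Benjamini-Hochberg over every gene tested, was below 0.05). The median log2 fold change of polysomal over subpolysomal RNA was 0.41 over the members and −0.10 over all genes. The genes tested were not matched to the members in level or coding status, and 12632 of them had an annotated coding transcript. The families differed in these counts. Among the 110 members outside SLC25A, 67 were polysomal and 10 subpolysomal, with a median of 0.50, and among the 37 SLC25A members 13 were polysomal and 15 subpolysomal, with a median of −0.07. With all 24 libraries the members called were 81 and 26, against 34.8% and 37% of all genes.

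**Figure D1:**
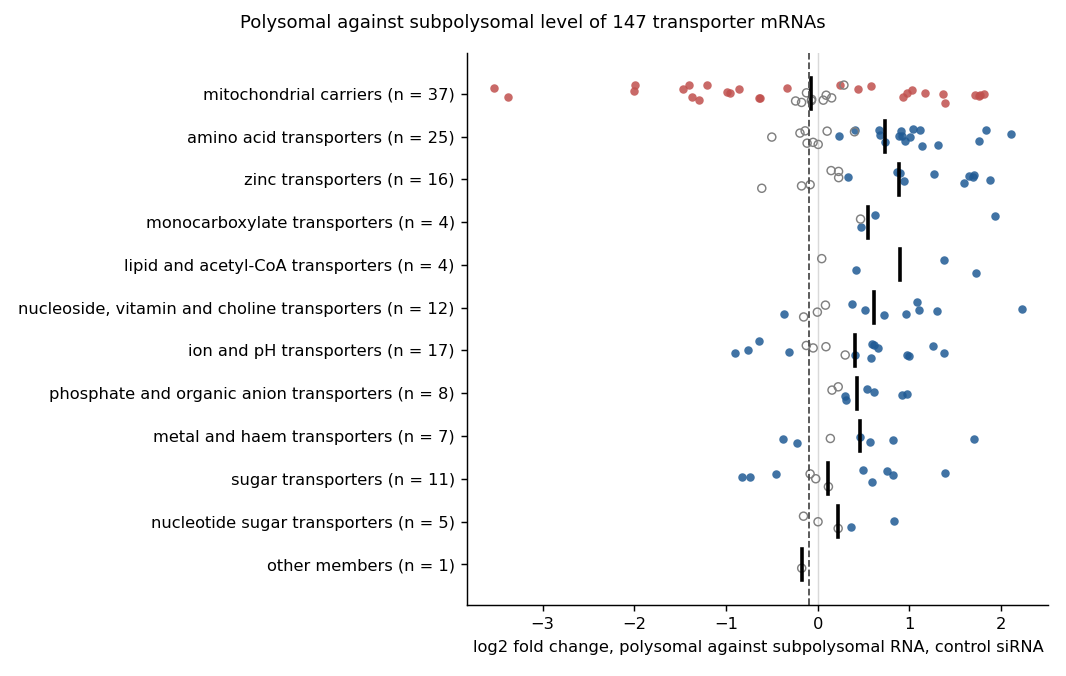
Log2 fold change of polysomal over subpolysomal RNA in control siRNA cells for each of the 147 members, in 1 row per transporter family. Filled points passed the test and open points did not, black bars are family medians, and the dashed line is the median of all genes tested. The mitochondrial row spreads on both sides of the line, as far as −3.53, while no amino acid, zinc, monocarboxylate, lipid, phosphate or nucleotide sugar member was called subpolysomal.

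Sums over the genes weigh the most abundant mRNAs. Summed counts of the 110 members outside SLC25A were 5614 to 5834 CPM in the 4 control subpolysomal libraries and 9134 to 9945 in the 3 polysomal ones, so that the ranges did not overlap. Summed SLC25A counts ran the other way, with 3601 to 4292 CPM in subpolysomal and 2875 to 3156 in polysomal RNA. Much of this fall lay in SLC25A23, SLC25A6 and SLC25A37, whose values are given below, so it does not describe the SLC25A members in general. Taken gradient by gradient as the median log2 polysomal/subpolysomal ratio minus that of all genes, SLC25A members stood at −0.05 ± 0.02 (SD, n = 3 gradients) and the others at 0.54 ± 0.11. CPM are shares of a library, so a lower share of an mRNA in a fraction cannot be told apart from a rise of other mRNAs there.

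Amino acid transporters were called polysomal in 17 of 25 cases and subpolysomal in 0, with a median log2 fold change of 0.73. SLC7A5, the large neutral amino acid exchanger, stood highest among them. Its mRNA was at 85.1, 72.5, 144 and 118 CPM in the control subpolysomal libraries and at 581, 423 and 351 in the polysomal ones, a log2 difference of 2.11 ± 0.21 (SE; FDR = 7.09e-09) with no overlap. The subpolysomal values of replicates 3 and 4 lay above those of replicates 1 and 2. SLC3A2, the single-pass heavy chain that SLC7A5 and SLC7A11 need at the cell surface, differed less, at 0.41 ± 0.12. All 4 SLC1A members, which carry glutamate or neutral amino acids, were polysomal. SLC1A5, the glutamine exchanger, was at 149 to 220 CPM in subpolysomal and at 415 to 541 in polysomal RNA. SLC7A11, which imports cystine, had 0.40 ± 0.27 and was not called. The arginine importer SLC7A1 had a log2 difference of 1.00, and the glutamine importers SLC38A1 and SLC38A2 had 0.89 and 0.68, all called.

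Zinc transporters were called polysomal in 10 of 16 cases and subpolysomal in 0, and importers and exporters differed in their counts. Of 10 SLC39A members, which bring zinc into the cytosol, 8 were polysomal, with a median log2 fold change of 1.27. Of 6 SLC30A members, which move zinc out of the cytosol, 2 were polysomal, with a median of 0.19. SLC39A6 was at 20.5, 23.9, 16.7 and 20.1 CPM in subpolysomal and at 67.9, 73.9 and 82.4 in polysomal RNA, a log2 difference of 1.88 ± 0.11. The cell surface exporter SLC30A1 was at 118, 113, 89.4 and 97.9 CPM against 101, 96.6 and 98.5, and its libraries overlapped.

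Monocarboxylate transporters were polysomal in 3 of 4 cases and lipid or acetyl-CoA transporters in 3 of 4. SLC16A1, the lactate and pyruvate carrier of the plasma membrane, was at 193, 208, 144 and 171 CPM in subpolysomal and at 676, 669 and 706 in polysomal RNA, a log2 difference of 1.93 ± 0.11 (FDR = 2.46e-13). SLC27A2, which activates and imports very long chain fatty acids, rose from 2.02 to 3.76 CPM across the subpolysomal libraries to 9.09 to 10.1 in the polysomal ones. Nucleoside, vitamin and choline transporters were polysomal in 8 of 12 cases, and the riboflavin transporter SLC52A2 had the largest polysomal difference of any member, 2.23 ± 0.32. Its libraries varied, with 3.41, 2.54, 8.48 and 6.45 CPM in subpolysomal and 34.5, 22.6 and 14.8 in polysomal RNA, but the groups did not overlap.

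Among the remaining families, phosphate and organic anion transporters were polysomal in 6 of 8 cases, metal and haem transporters in 4 of 7 with 2 subpolysomal, and nucleotide sugar transporters in 2 of 5. Ion and pH transporters were polysomal in 9 of 17 and subpolysomal in 4. Sugar transporters were polysomal in 5 of 11 and subpolysomal in 3. The glucose carrier SLC2A1 was among the polysomal ones, with 17.9 to 27 CPM in subpolysomal and 52.8 to 66.9 in polysomal RNA.

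SLC25A mRNAs reached both ends of the gradient. SLC25A23, a calcium-regulated carrier of ATP-magnesium and phosphate, was at 551, 717, 612 and 672 CPM in the control subpolysomal libraries and at 56.5, 50.6 and 58.2 in the polysomal ones. Its log2 difference of −3.53 ± 0.13 (FDR = 1.31e-15) was the most subpolysomal of all members, and the groups lay far apart. In the 4 control input libraries it held 94 to 103 CPM. SLC25A37, the mitochondrial iron importer mitoferrin-1, followed with 297, 273, 244 and 274 against 28.3, 25.9 and 24.3 CPM (−3.38 ± 0.12). SLC25A51, the mitochondrial NAD+ carrier, had 49.3, 50.6, 35.3 and 43 against 11.9, 10.3 and 11.0 CPM (−2.01 ± 0.14).

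Close paralogues did not share a position. The members SLC25A4, SLC25A24, SLC25A25 and SLC25A28 are named here after their values were seen. Of the ADP/ATP carriers, SLC25A5 and SLC25A4 were polysomal, with log2 differences of 1.37 ± 0.10 and 1.77 ± 0.09, and SLC25A6 was subpolysomal, at −1.29 ± 0.22. SLC25A5 was at 246, 307, 278 and 268 CPM in subpolysomal and 707, 756 and 670 in polysomal RNA. SLC25A6 was at 435, 514, 991 and 914 against 357, 278 and 237 CPM, again with higher subpolysomal values in replicates 3 and 4. SLC25A6 is annotated at 2 loci, on X and Y, and 9 annotated genes are SLC25A5 pseudogenes, so that reads of both are uncertain. Of the ATP-magnesium carriers, SLC25A24 was polysomal at 1.76 ± 0.14, SLC25A25 was not called at 0.15 ± 0.17, and SLC25A23 was the subpolysomal extreme. Both mitoferrins were subpolysomal, with SLC25A28 at −1.99 ± 0.10. The phosphate carrier SLC25A3 and the aspartate/glutamate carrier SLC25A13 had small differences, 0.24 ± 0.10 (called, with overlap) and 0.09 ± 0.15 (not called).

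**Figure D2:**
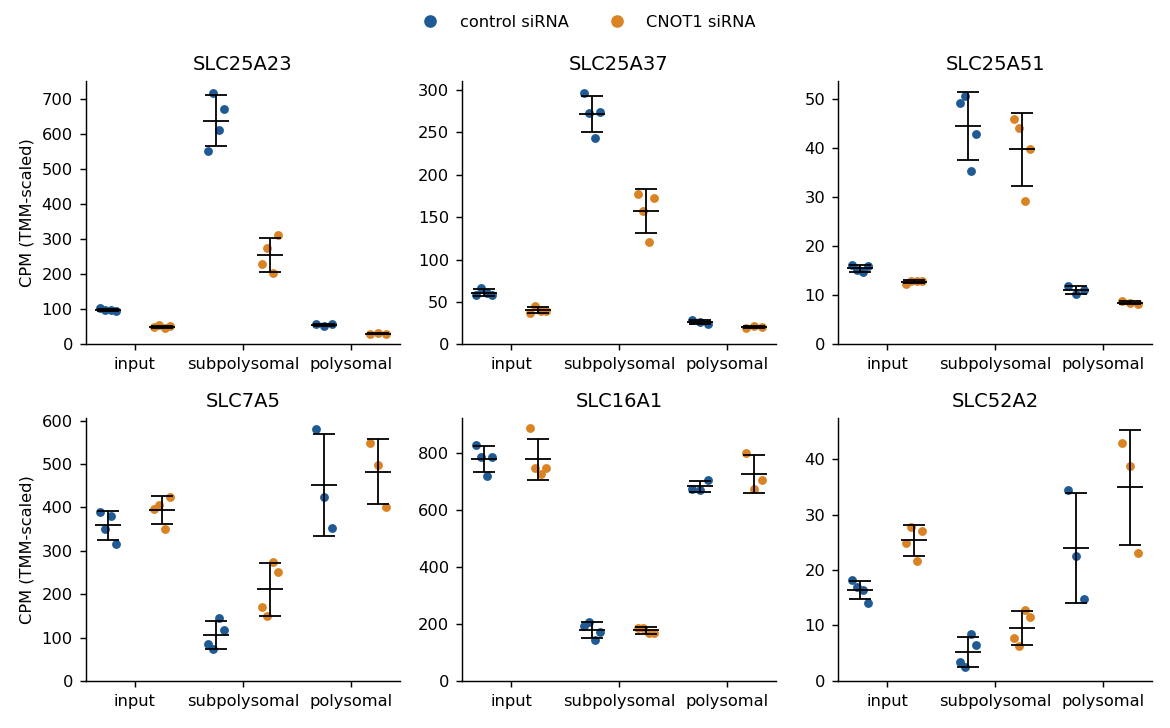
CPM of 6 members in every library of input, subpolysomal and polysomal RNA, with control siRNA in blue and CNOT1 siRNA in orange, and bars at the mean ± SD (n = 4, and n = 3 for polysomal RNA). SLC25A23, SLC25A37 and SLC25A51 peak in subpolysomal RNA, and SLC7A5, SLC16A1 and SLC52A2 are lowest there. SLC25A23 is lower in all 3 fractions with CNOT1 siRNA.

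Genes that act beside the transporters served as comparison. Of 38 genes of ER targeting and membrane insertion, such as subunits of the signal recognition particle and the translocon, 29 were polysomal and 7 subpolysomal, with a median log2 fold change of 0.82. P-type ATPases, ion pumps that are also inserted at the ER, were polysomal in 22 of 24 cases with a median of 1.05. ABC transporters, which use ATP to move their substrates, were polysomal in 9 of 24 and subpolysomal in 5, with a median of 0.32.

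SLC25A coding sequences were short, with a median of 957 nt against 1617 nt for the other members and 1443 nt for 12632 tested coding genes. Across genes, Pearson's r between log2 coding length and the polysomal log2 fold change was −0.05 over the 37 SLC25A members and 0.05 over the 110 others. These are descriptions over genes that share the same libraries. Median 5′UTR lengths were 142 nt and 217.5 nt, and 146 nt over all coding genes, and median 5′UTR GC contents were 70.0%, 68.6% and 67.3%.

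Purine-rich tetramers, the sequence class that the study examined for these helicases, were searched on the mRNA strand as AAGA or AGAA or GAAA or GAAG or GAGA or AGAG or GGAA or AAAA, counted without overlap between matches. The 5′UTRs held a median of 1.40 per 100 nt in SLC25A members, 1.87 in the others and 1.66 over all coding genes. The last 27 bases before the start codon are shown with the ATG for members at both ends of the gradient, 3 subpolysomal and 3 polysomal, since this is where a scanning ribosome arrives. The choice left out the chromosome that holds SLC25A37 and SLC52A2, so these more extreme members are not shown. They were read 5′ to 3′ on the minus strand of GRCh37, and capitals mark the tetramers that lie wholly within the 27 bases, so that a match reaching into the ATG, as in SLC16A1, is neither marked nor counted.
SLC25A23: gcctcccctcccccccgggcgggcgccatg
SLC25A51: tcatGAAAAAGAAAGAtcttaagcagcatg
SLC25A28: ggtgggcgccgcagctggcccgggtggatg
SLC7A5: gtcccaggcccggccggtgcgcAGAGcatg
SLC16A1: gcattttGGAAtttatctacacttaaaatg
SLC39A6: caacgaggccgcgGAGAcGAAGgcgcaatg

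The subpolysomal SLC25A23 and SLC25A28 windows hold no tetramer and SLC25A51 holds 3, and the polysomal SLC7A5 and SLC16A1 windows hold 1 each and SLC39A6 holds 2. The counts thus varied within each end of the gradient. A window of this length held at least 1 tetramer in 42.2% of 11611 coding genes, in 35.1% of the SLC25A members (13 of 37) and in 43.5% of the others (47 of 108). In the genome these mRNAs come from chr19:6436090-6465214 (SLC25A23), chr9:37879397-37904350 (SLC25A51), chr10:101370276-101382550 (SLC25A28), chr16:87863629-87903113 (SLC7A5), chr1:113454469-113500215 (SLC16A1) and chr18:33688494-33709348 (SLC39A6), each a protein-coding gene. SLC39A6 and SLC25A51 share an exon with another annotated gene of the same strand.

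To ask which transporter mRNAs were recovered with each helicase, every IP was compared with RIP total RNA. No library of an IP with a control antibody was among the samples. Binding to a helicase therefore cannot be told apart here from RNA that any IP would carry. The 3 comparisons share the total RNA libraries, and their values are therefore given side by side. In the eIF4A1 IP 32 members were higher and 39 lower, against 26.1% and 26.5% of 17474 genes. In the eIF4A2 IP 25 were higher and 47 lower, against 24.5% and 25.8%, and in the DDX6 IP 28 were higher and 41 lower, against 22.7% and 23.3%. SLC25A members were higher in 12 and lower in 6 of 37 cases with eIF4A1, in 7 and 9 with eIF4A2 and in 12 and 6 with DDX6. The other 110 members were higher in 20 and lower in 33 with eIF4A1, in 18 and 38 with eIF4A2 and in 16 and 35 with DDX6. With the replicate number as a block the eIF4A2 IP gave 42 members higher and 62 lower, against 30.4% and 31.9% of all genes. Of these, 16 and 11 were SLC25A members, so the lean of SLC25A towards lower values with eIF4A2 was not kept. The block gave 15 SLC25A members higher and 8 lower with eIF4A1, against 32.4% and 32% of all genes. With DDX6 it gave 16 and 6, against 29.6% and 30.4%.

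The largest rise in every IP was that of SLC25A23. It was at 107, 121 and 91.6 CPM in RIP total RNA, at 328, 394 and 320 in the eIF4A1 IP, at 316, 375 and 320 in the eIF4A2 IP and at 287, 414 and 319 in the DDX6 IP. All IP libraries exceeded all total RNA libraries, with log2 fold changes of 1.70, 1.66 and 1.68 (SE 0.17 each). SLC25A42, the mitochondrial coenzyme A carrier, rose from 10.8 to 12.2 CPM in total RNA to 24.8 to 34.8 over the 9 IP libraries. SLC25A51 rose by 0.92, 0.91 and 0.81 on the log2 scale. Mitoferrin-1, the next most subpolysomal member, was not called in any IP, with log2 fold changes of 0.00, 0.36 and −0.23, but with the replicate block it was higher in the eIF4A2 IP (0.36, FDR = 0.0443).

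Outside SLC25A, the rises included zinc, creatine and orphan transporters. SLC39A13, a zinc transporter of intracellular membranes, was at 39.3, 36.5 and 34.6 CPM in total RNA and at 134, 117 and 99.7 in the eIF4A1 IP. Its log2 fold changes were 1.66 ± 0.15, 1.46 ± 0.15 and 1.44 ± 0.15 with eIF4A1, eIF4A2 and DDX6. SLC39A3, a zinc importer, had 1.30, 1.49 and 0.84. The creatine transporter SLC6A8 had 1.53, 0.93 and 0.85, and SLC22A23, with no established substrate, had 1.38, 1.46 and 0.74. Each of these members was called in all 3 IPs with no overlap with total RNA.

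The falls were led by lipid, lactate and nucleotide carriers. SLC27A2 was at 10.5, 10.5 and 13.3 CPM in total RNA, at 2.46, 2.43 and 2.58 in the eIF4A1 IP, at 2.95, 2.55 and 3.24 in the eIF4A2 IP and at 3.06, 3.15 and 4.12 in the DDX6 IP. It fell by 2.20, 1.97 and 1.73 on the log2 scale. SLC16A1 was at 731, 760 and 894 CPM in total RNA and at 224, 174 and 245 in the eIF4A2 IP, with log2 fold changes of −1.73, −1.89 and −1.55. The related SLC16A7 had −1.91, −2.19 and −1.89. SLC25A5 was at 590, 615 and 431 CPM in total RNA, at 133, 168 and 145 with eIF4A1, at 132, 124 and 128 with eIF4A2 and at 217, 269 and 215 with DDX6.

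By family, all 4 SLC1A members were lower in each of the IPs, and so were 3 of 4 SLC16A members. Amino acid transporters as a whole were higher in 3 and lower in 10 of 25 with eIF4A1, in 3 and 12 with eIF4A2 and in 1 and 10 with DDX6. SLC3A2 fell by 1.41, 1.31 and 1.27 on the log2 scale, and its partner SLC7A5 had 0.27, 0.64 and 0.04, none called, although the replicate block called SLC7A5 higher in the eIF4A2 IP (0.56, FDR = 0.0144). Metal and haem transporters were higher in 3, 2 and 2 of 7 and lower in 1, 1 and 0. ER targeting and insertion genes were higher in 0 and lower in 24 of 38 with eIF4A1, in 0 and 28 with eIF4A2 and in 1 and 19 with DDX6. P-type ATPases were lower in 7, 8 and 6 of 24 and higher in 2, 1 and 1, and ABC transporters were lower in 7 of 24 with each IP and higher in 5, 5 and 3.

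**Figure D3:**
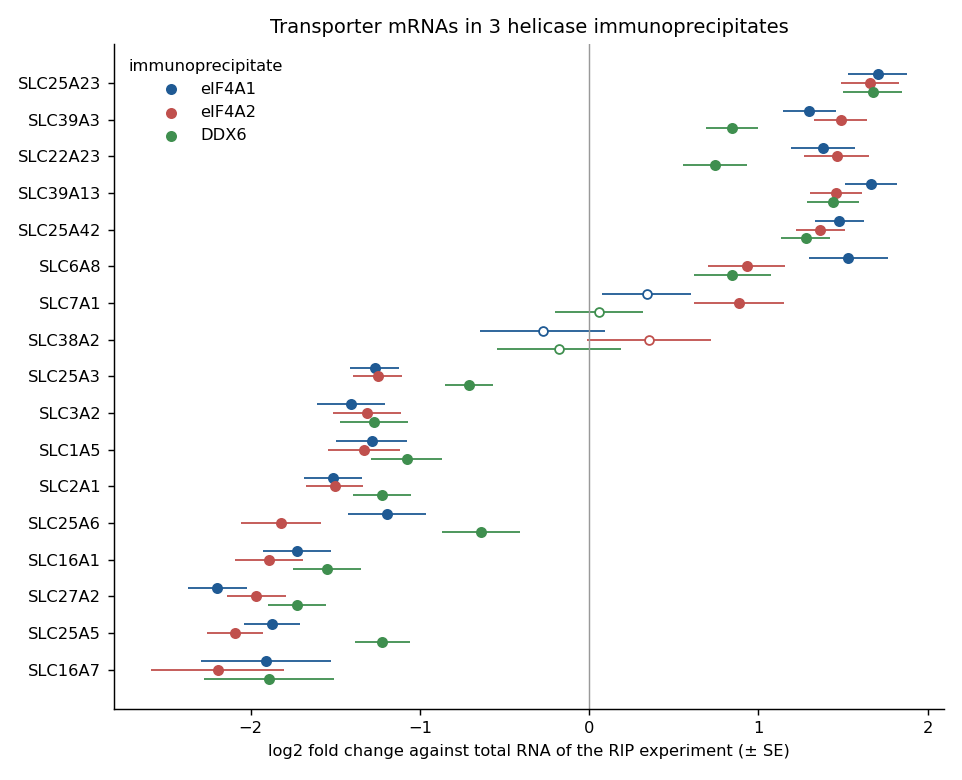
Log2 fold change (± SE, n = 3 against 3 libraries) of each IP over RIP total RNA for 17 members, with open symbols for values that were not called. SLC25A23 stands highest with all 3 antibodies, SLC27A2 is lowest with eIF4A1 and SLC16A7 with eIF4A2 and DDX6, and eIF4A1, eIF4A2 and DDX6 values lie close to each other for most members.

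eIF4A2 was then set directly against the other helicases. No member was called between the eIF4A2 and eIF4A1 IPs in the edgeR fit, where 0.973% of all genes were higher and 0.0858% lower with eIF4A2. At an unadjusted p below 0.05 the members numbered 12 (3 higher, 9 lower), or 8.16% against 17.8% of all genes, and DESeq2 called 3, all lower, against 3.1% of all genes higher and 0.91% lower. With the replicate block 3 members were higher and 11 lower, against 7.12% and 8.7% of all genes. Member log2 differences ran from −0.63 to 0.63, with a median SE of 0.186.

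Between the eIF4A2 and DDX6 IPs 8 members were higher and 14 lower with eIF4A2, against 9.82% and 11.3% of all genes. SLC25A members held 3 of the higher and 8 of the lower ones. With the replicate block the members were 21 and 37, against 18.5% and 22%, and SLC25A members held 4 and 16 of them. SLC25A27, an uncoupling protein homologue, was at 25.9, 22.5 and 28.7 CPM with eIF4A2 and at 13.7, 13.2 and 13.9 with DDX6 (log2 difference 0.91 ± 0.21, FDR = 0.0103). The arginine importer SLC7A1 had 710, 678 and 1211 CPM with eIF4A2 against 450, 371 and 644 (0.83 ± 0.26), and SLC22A23 had a log2 difference of 0.72. In the other direction SLC25A6 was at 239, 224 and 214 CPM with eIF4A2 and at 482, 586 and 471 with DDX6 (−1.18 ± 0.23). The oxoglutarate carrier SLC25A11 and SLC25A5 had log2 differences of −1.02 and −0.87. Without eIF4A2 replicate 1 the lower members were 6, where the share of all genes fell as well, to 4.07%. Without DDX6 replicate 1 the higher members were 2, a count printed without its share over all genes.

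The RIP and gradient experiments share no library, and their calls were set side by side. Of the 80 polysomal members, 32 were lower and 6 higher in the eIF4A1 IP, or 40% and 7.5%, and the same shares over all polysomal genes were 44.5% and 16%. In the eIF4A2 IP 41 were lower (51.2%, all polysomal genes 50.2%) and 7 higher (8.75%, 12.6%). In the DDX6 IP 31 were lower (38.8%, 36.6%) and 5 higher (6.25%, 15.5%). Of the 25 subpolysomal members, 12, 8 and 11 were higher with eIF4A1, eIF4A2 and DDX6, or 48%, 32% and 44%, where all subpolysomal genes gave 32.9%, 33.8% and 29.1%.

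Across the 147 members, Pearson's r between the polysomal and the IP log2 fold changes was −0.401 for eIF4A1, −0.458 for eIF4A2 and −0.374 for DDX6. Over 16473 genes tested in both fits it was −0.108, −0.288 and −0.033. By rank the members lay nearer to all genes. Spearman's rho was −0.408, −0.502 and −0.357 over the members and −0.247, −0.375 and −0.178 over all genes. The sign of Pearson's r was the same within SLC25A (−0.386, −0.507 and −0.297) and within the other members (−0.385, −0.43 and −0.341). These values describe genes measured in the same libraries, which are not independent replicates. Exceptions were plain, since SLC22A23 was polysomal (0.97 ± 0.15) and rose in every IP, and SLC25A37 was subpolysomal and was called in none without the replicate block and in the eIF4A2 IP with it.

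To ask how transporter mRNAs respond to loss of CNOT1, CNOT1 siRNA was compared with control siRNA in each fraction. In input RNA 37 members were higher and 30 lower, against 19.6% and 21.1% of all genes. In subpolysomal RNA they were 50 and 25, against 17.7% and 24.3%, and in polysomal RNA 38 and 17, against 17.1% and 14.6%. Members outside SLC25A were higher in 30 and lower in 17 of 110 cases in input, 40 and 12 in subpolysomal and 31 and 9 in polysomal RNA. SLC25A members were higher in 7 and lower in 13 of 37 in input, 10 and 13 in subpolysomal and 7 and 8 in polysomal RNA. The polysomal split depended on the scaling: with RLE factors in place of TMM it was 29 higher and 22 lower, against 13.2% and 18% of all genes. With all 24 libraries no member and 0% of genes were called in either direction in polysomal RNA by edgeR, and 4 members had an unadjusted p below 0.05, or 2.72% against 6.69% of all genes. DESeq2 on the 22 libraries called 30 members higher and 23 lower, against 13.5% and 18.4% of all genes.

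In all 3 fractions, 22 members were higher and 8 lower with CNOT1 siRNA, against 7.26% and 7.37% of all genes. The lower ones were SLC25A16, SLC25A23, SLC25A27, SLC25A37, SLC25A40, SLC37A4, SLC41A3 and SLC50A1. SLC25A23 fell furthest: control input libraries had 103, 97.1, 97.3 and 94 CPM and CNOT1 siRNA libraries 47.9, 53.8, 45.7 and 51.5, a log2 fold change of −0.98 ± 0.11 (FDR = 5.34e-07). In subpolysomal RNA it went to 228, 276, 202 and 311 CPM (−1.33 ± 0.11), and in polysomal RNA to 28.5, 31 and 29.5 (−0.89 ± 0.13). SLC25A37 went from between 244 and 297 CPM to 177, 158, 120 and 173 in subpolysomal RNA (−0.79 ± 0.10). SLC25A51 was not called in any fraction, with log2 fold changes of −0.28, −0.16 and −0.38, and with the replicate block it was lower in input (FDR = 0.0309) and polysomal RNA (FDR = 0.0194). SLC41A3, of a family of magnesium transporters, fell by 0.92 ± 0.08 on the log2 scale in subpolysomal RNA.

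The largest rises were spread over small families. SLC43A2, a large neutral amino acid transporter, was at 7.02, 5.69, 5.82 and 5.92 CPM in control input and at 13, 12.9, 10.9 and 14.3 with CNOT1 siRNA, with log2 fold changes of 1.06, 0.94 and 1.08 in input, subpolysomal and polysomal RNA. SLC29A3, a nucleoside transporter of lysosomes, went from 9.58, 8.22, 8.55 and 7.57 to 18.2, 15.7, 18.8 and 17.1 CPM in input (1.04 ± 0.12). SLC10A3, a member of the bile acid carrier family with no established substrate, rose most in subpolysomal RNA, from 3.22, 4.90, 6.46 and 7.48 to 12.9, 12.7, 20.3 and 22 CPM (1.63 ± 0.22). SLC2A1 was at 66.9, 53.5 and 52.8 CPM in polysomal RNA with control siRNA and at 130, 114 and 103 with CNOT1 siRNA (1.00 ± 0.12). These 4 members were called in all 3 fractions, and none of their input libraries overlapped.

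Several members were called in 1 or 2 fractions. SLC7A5 went from 85.1, 72.5, 144 and 118 to 169, 149, 275 and 252 CPM in subpolysomal RNA (1.01 ± 0.20), while its input and polysomal values overlapped and were not called (0.14 and 0.09). SLC25A33, a mitochondrial pyrimidine nucleotide carrier, went from 57.1, 77.3, 53.5 and 58.0 to 124, 156, 109 and 115 CPM there (1.03 ± 0.11) and was also higher in input RNA (0.51 ± 0.11). SLC26A6, an anion exchanger, fell by 0.81 ± 0.16 on the log2 scale in subpolysomal RNA. SLC25A39, linked to mitochondrial glutathione import, fell by 0.74 ± 0.26 in polysomal RNA, and SLC16A7 by 0.68 ± 0.18 in input RNA. The SLC25A39 call was lost in 6 of 12 alternative settings. SLC16A1 had log2 fold changes of 0.00, −0.02 and 0.09 and was not called. A difference between fractions was tested only as the ratio described next.

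By role, amino acid transporters were higher in 10 of 25 in each of the 3 fractions and lower in 5, 1 and 2. Zinc transporters were higher in 4, 8 and 3 of 16 and lower in 2 each time. Nucleoside, vitamin and choline transporters were higher in 4, 5 and 5 of 12 and lower in 2, 2 and 1, and metal and haem transporters higher in 3, 5 and 3 of 7 and lower in 1 each time. ER targeting genes were higher in 5, 8 and 4 of 38 and lower in 11, 4 and 9. P-type ATPases were higher in 5, 12 and 4 of 24 and lower in 5, 3 and 4, and ABC transporters higher in 3, 4 and 4 and lower in 3, 8 and 2.

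**Figure D4:**
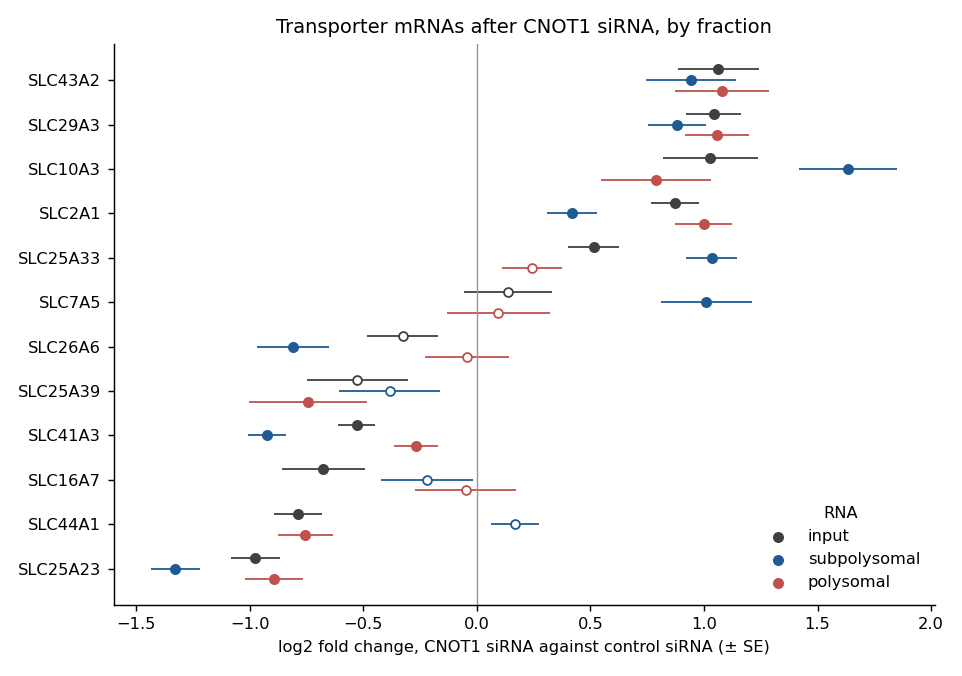
Log2 fold change (± SE) of CNOT1 siRNA over control siRNA in input, subpolysomal and polysomal RNA for 12 members, with open symbols for values that were not called (n = 4 against 4, and 3 against 3 in polysomal RNA). SLC43A2, SLC29A3 and SLC10A3 lie above 0 and SLC25A23 below 0 in every fraction, and SLC44A1 is lowered in input and polysomal RNA but not in subpolysomal RNA.

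The shift between fractions was tested as the change of the polysomal/subpolysomal ratio with CNOT1 siRNA, taken as the difference of the siRNA effects in the polysomal and subpolysomal fractions. Here 17 members moved towards polysomes and 14 away, against 9.99% and 7.51% of all genes. With RLE factors these were 14 and 17, against 6.81% and 9.52%, and with all 24 libraries 5 and 7, against 3.26% and 2.4%. SLC25A members and the others each had overlapping ranges of gradients with either siRNA. The median ratio minus that of all genes was −0.14 ± 0.07 (SD, n = 3) for SLC25A and 0.54 ± 0.07 for the others with CNOT1 siRNA, beside −0.05 ± 0.02 and 0.54 ± 0.11 with control siRNA. Some smaller groups lay apart, which was not tested. Zinc transporters ranged from 0.62 to 1.19 with control siRNA and from 0.36 to 0.60 with CNOT1 siRNA. Ion and pH transporters lay barely apart the other way, at 0.360 to 0.433 and 0.435 to 0.751. ER targeting genes went from 0.89 to 0.97 to 0.64 to 0.76, and P-type ATPases from 0.96 to 1.24 to 0.55 to 0.90.

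SLC39A8, an importer of zinc and manganese, moved furthest away from polysomes, and it shares an exon with another annotated gene of the same strand. Its log2 ratios were 0.94, 0.55 and 1.04 in the control gradients and −0.03, −0.45 and −0.02 with CNOT1 siRNA, a change of −1.09 ± 0.18 (FDR = 0.000201) with no overlap. Its subpolysomal level rose from between 34.3 and 56.2 CPM to between 62.7 and 79.1, and its polysomal level fell from between 82.7 and 87.0 to between 57.9 and 69.7. SLC44A1, the choline transporter-like protein, went from 1.14, 0.98 and 1.54 to 0.45, 0.04 and 0.55 (−0.92 ± 0.16). SLC25A33 went from −0.61, −0.90 and −0.51 to −1.42, −1.69 and −1.28 (−0.79 ± 0.17). Of the 10 SLC39A members 4 were called away from polysomes and 0 towards them. SLC7A5 was called at −0.92 ± 0.30, with overlapping gradients.

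The members that moved towards polysomes included transporters of folate and thiamine. SLC46A1, the proton-coupled folate transporter, had log2 ratios of 0.53, 0.62 and 0.40 with control siRNA and 1.39, 1.56 and 1.18 with CNOT1 siRNA (0.81 ± 0.13, FDR = 0.00019). The thiamine transporter SLC19A2 went from 0.29, 0.26 and 0.35 to 1.29, 1.01 and 1.12 (0.81 ± 0.16). SLC3A2 went from 0.68, 0.42 and 0.24 to 1.34, 1.26 and 1.04 (0.75 ± 0.17). SLC27A3, of the fatty acid transport family, had 0.37, 0.14 and −0.40 against 1.04, 1.09 and 0.40 (0.84 ± 0.21), and it shares an exon with INTS3 on the same strand. SLC25A6 was called at 1.02 ± 0.30 with overlapping gradients. SLC3A2 and its partner SLC7A5 had changes of opposite sign, and the SLC7A5 call was lost in 9 of 20 alternative settings and that of SLC3A2 in 1 of 20.

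**Figure D5:**
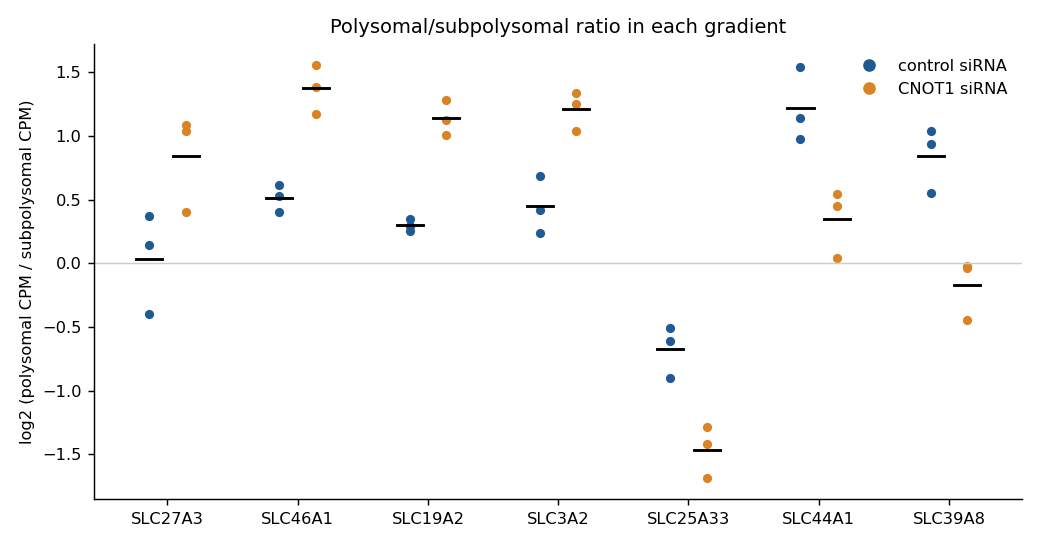
Log2 ratio of polysomal over subpolysomal CPM in each of the 3 control siRNA and 3 CNOT1 siRNA gradients for 7 members, with black bars at the means. The gradients of the 2 siRNAs do not overlap for any of them: SLC27A3, SLC46A1, SLC19A2 and SLC3A2 are higher with CNOT1 siRNA, and SLC25A33, SLC44A1 and SLC39A8 are lower.

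TNRC6A/B siRNA was compared with control siRNA to ask the same of the miRNA pathway. No member and 0% of the 14064 genes were called by edgeR in either direction, and 2 members, both higher, had an unadjusted p below 0.05, or 1.36% against 2.05% of all genes. DESeq2 called no member, 0.0427% of genes higher and 0.0142% lower. Member log2 fold changes ran from −0.61 to 0.80 with a median SE of 0.327 from 2 libraries per group, beside a median SE of 0.119 for CNOT1 siRNA in input RNA. In simulated counts this fit recovered 0% of the genes changed by 1 on the log2 scale, so the lack of calls does not exclude changes of that size.

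Read assignment limits single members. An exon of another gene on the same strand overlaps that of 20 members, and an exon on the opposite strand that of 62. The 20 include SLC25A3, SLC29A3 and SLC39A3, besides those named with their values. The libraries were made with a stranded kit, but the strand setting of the counting is not given in the sources used here.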

How the data were processed

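The deposited counts, raw integers per gene symbol and library, were made by the authors with TopHat2 alignment to hg19 and HTSeq; the submitters' processing notes also name bcl2fastq 2.0. The libraries came from a stranded TruSeq kit. A further deposited table of each IP against total RNA holds the authors' own fold changes and p-values and was not used. No per-sample column lacked a sample (0).

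The members, gene lists and tests were chosen with earlier results of these data known. Counts were fitted by edgeR (version 4.0.16, with limma 3.58.1 and version 1.17.8 of data.table, under R 4.3.3), separately for the 12 RIP, 22 gradient and 4 TNRC6 libraries. The filter was filterByExpr, TMM factors were used, and group means were compared by two-sided quasi-likelihood tests, called at an FDR below 0.05 over all genes in each of 11 comparisons. CPM were scaled to TMM-adjusted totals, except for the member rule and the marker genes. For the CNOT1 check and the summed counts of the gradients, the TMM factors came from all 24 libraries. Log2 ratios used a pseudocount of 0.5 CPM. The fits were tested on simulated counts, in 1 comparison per fit, with genes changed by 1 or by 2 on the log2 scale. The RIP fit recovered 86.4% and 99% of these, the gradient fit 98.9% and 100%, and the TNRC6 fit 0% and 44.3%.

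Named genes were a fixed list, the 5 members with the highest input CPM within and outside SLC25A, and the 3 largest rises and falls per comparison among called members with at least 10 CPM and no overlap of libraries. Other settings were RLE factors, DESeq2 1.42.0, no filter, only the compared libraries, a replicate block, all 24 gradient libraries, a pseudocount of 1 CPM and leaving out each library.

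Same-numbered libraries deviated together from their group means in every pair of the RIP groups (r between 0.138 and 0.628), and between control and CNOT1 siRNA within input (0.135 to 0.225), subpolysomal (0.453 to 0.610) and polysomal RNA (0.192 to 0.379). The numbers were therefore taken to pair these libraries, but the main fits, and the calls, SE and FDR printed, have no replicate block, and the blocked value is given where it changes a call printed or a count by over 1.5 times. Gene models came from GENCODE release 44 on GRCh37, in which all 147 members matched a current symbol. Reads carry no molecular identifiers, and totals of 15.4 to 46 M counts (M, mega) limit counting error only.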

Additional observations from a re-analysis of the deposited data

Results flagged for a closer look

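Among 104 groups of 4 libraries checked for the members printed, 3 held a library far from the rest, and chance alone marks about 1 group in 20. SLC25A51 was at 12.3 CPM in CNOT1 siRNA input replicate 1, with 12.9 in each of the other libraries, a gap of under 1 CPM. SLC16A1 was at 887 CPM in the same library, with 728 to 748 in the others. SLC27A2 was at 5.78 CPM in CNOT1 siRNA subpolysomal replicate 2, with 4.00 to 4.08 in the others.

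For 14 named members the CNOT1 siRNA effect differed between polysomal and subpolysomal RNA by the interaction test. The change of the log2 polysomal/subpolysomal ratio was −1.09 for SLC39A8, −0.92 for SLC44A1, −0.79 for SLC25A33, 0.81 for SLC19A2, 0.81 for SLC46A1, 0.84 for SLC27A3 and 0.75 for SLC3A2, and for these every control gradient lay apart from every CNOT1 siRNA gradient. The gradients also lay apart for SLC41A3 (0.66), SLC30A1 (0.58) and SLC38A1 (−0.45). They overlapped for SLC7A5 (−0.92), SLC25A6 (1.02), SLC26A6 (0.77) and SLC2A1 (0.58). Several of these calls depended on the setting. Of 20 alternatives, 9 lost the call of SLC38A1, SLC26A6 or SLC7A5, 8 that of SLC30A1 and 7 that of SLC25A6. SLC2A1 lost its call in 5 and was reversed in 1.

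The library labelled CNOT1 siRNA polysomal replicate 3, outside the fit, held CNOT1 at 631 CPM, above the 470 to 501 of the 3 control polysomal libraries that were used.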

How the results depend on the processing

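The medians of the polysomal/subpolysomal ratio moved by less than 1 SD under every alternative. Of 229 calls of 48 named members, 147 held under every alternative run. The replicate block gave 42 members higher in the eIF4A2 IP, 3 higher and 11 lower between eIF4A2 and eIF4A1, 21 and 37 between eIF4A2 and DDX6, and, in the TNRC6 experiment, 14 higher and 1 lower, against 3.7% and 1.73% of all genes. The block is not given beside the TNRC6 result because 2 pairs do not settle the pairing (r = 0.821). Subpolysomal and polysomal libraries of 1 number did not deviate together (r from −0.308 to 0.155). Between eIF4A2 and eIF4A1 DESeq2 and the absence of a filter gave 3 and 2 members lower. With only the compared libraries CNOT1 siRNA gave 56 members higher in input and 13 lower in subpolysomal RNA, against 30.9% and 15.2% of all genes, and the ratio test gave 10 and 6, against 5.47% and 3.97%. All 24 libraries gave 0 and 0 in polysomal RNA, against 0% of all genes each way. They gave 5 and 7 in the ratio test, against 3.26% and 2.4%, and there the SLC2A1 ratio turned to −0.017 (FDR = 0.984). In input they gave 18 members lower, a count printed without its share over all genes and so not a result about the members. Leaving out 1 library gave 21 to 34 higher with eIF4A1 (21 without RIP total RNA replicate 1), 26 to 42 lower with DDX6 (26 without DDX6 replicate 2, 27 without RIP total RNA replicate 3), 2 to 8 higher and 6 to 13 lower between eIF4A2 and DDX6, 10 to 14 lower in polysomal RNA with CNOT1 siRNA, and 10 to 19 towards polysomes (10 without control siRNA polysomal replicate 2). Shares over all genes moved in such runs too. With eIF4A1, 21.3% were higher without RIP total RNA replicate 1, beside 26.1% in the main fit. With DDX6, 20.2% were lower without RIP total RNA replicate 3, beside 23.3%. Between eIF4A2 and DDX6, 4.07% were lower without eIF4A2 replicate 1, beside 11.3%. The counts from leaving out 1 library therefore do not describe the members alone. The causes were not tested. Depth limits members near the CPM minimum of 5.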
